A study of Mus musculus with 3 samples.

Results

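Cytosolic ribosomal protein genes were followed through 3 single-cell libraries of mouse bone marrow. Members were all symbols of the gene table that begin with Rpl or Rps and a digit, together with Rplp0, Rplp1, Rplp2 and Rpsa, without the Rps6k kinases, symbols marked -ps as pseudogenes and paralogs whose symbol ends in l, such as Rpl22l1. The rule found 79 of the 32285 genes listed, on 19 chromosomes: 46 encode proteins of the large subunit and 32 of the small subunit. The remaining 1, Rps19bp1, encodes a binding partner of Rps19 rather than a ribosomal protein. It is kept because the rule takes it, and it was the member with the lowest level (39.8 CPM over all Sham cells, where CPM is UMIs scaled to a total of 1000000). Fau and Rack1 encode proteins of the same ribosome but lie outside the rule.

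The marrow came from the femur and tibia of mice of the C57BL/6J strain, was passed over Ficoll and was sequenced as droplet libraries of 3′ ends (10x Genomics, v3.1 kit). There was 1 library each for Sham, for MI, in which the LAD (a coronary artery) was ligated, and for MI-E, labelled as MI with EMPA, whose agent the labels give only as that abbreviation. Strain, tissue and gradient were common to all groups, and the number of animals behind a library, their age, the time after surgery and the dose of EMPA are not stated in the sources used. With 1 library per group no difference below was tested, and every interval is an exact 95% interval for counting error only.

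After filtering, 21273 Sham, 20459 MI and 19616 MI-E cells were kept, with medians of 2132, 3113 and 2581.5 UMIs. Each pair of libraries shared 156 to 176 cell barcodes, and 1 barcode occurred in all 3. Cells were grouped by clustering without ribosomal protein genes, and clusters were named after marker genes; 11 classes held at least 200 cells in every library. Several classes were filled by different clusters in different libraries. Among mature naive B-like cells, 3094 of 3317 Sham cells lay in a sub-cluster led by Igha, Gpr183, Jchain and Fcer2a. Of these genes, Igha and Jchain are also plasma cell markers, so the name of this sub-cluster is less certain. By contrast, 2074 of 2192 MI and 2801 of 3169 MI-E cells lay in a sub-cluster led by Cd200, Icosl and Ptpn22. Among monocyte-like cells, a cluster led by Ifi27l2a and Cx3cr1 held 2825 Sham, 27 MI and 80 MI-E cells, and one led by Saa3 and Vcan held 28, 3825 and 2870. Among neutrophil-like cells, a cluster led by Slc7a11 and Il1b held 1215 Sham, 232 MI and 155 MI-E cells, and one led by Retnlg and Cxcr2 held 96, 2426 and 1947. The conventional dendritic-like cluster was also led by C1qa, C1qb and Mrc1, genes of macrophages.

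Each cytosolic ribosome contains 1 large and 1 small subunit, and ribosomal proteins are assembled with ribosomal RNA in the nucleolus before the subunits are exported. Their messengers are among the most abundant of a growing cell and classically begin with a 5′ terminal oligopyrimidine (TOP) run, a C followed by a stretch of C and T, through which mTOR and Larp1 control their translation. In bone marrow, dividing progenitors and erythroid precursors make many ribosomes, and ribosomal protein deficiency (Rps19 is the textbook case in Diamond-Blackfan anaemia) causes failure of red cell production.

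RefSeq starts were available for 59 of the 79 members (build GRCm38.p6). A C at the first base followed by at least 4 C or T, searched only at the annotated start and on the strand of the gene, was found in 14 of them (23.7%), against 813 of 27025 genes in the whole table (3.01%). The windows below run from 10 bases before to 20 bases after the start, and capitals mark the pyrimidine run. They are shown for a selection of the members named below, and most of those shown carry a run, unlike the 59 as a whole. Rpl5, Rpl9, Rpl11, Rps13, Rps28 and Rplp0, also named below but not shown, have no such run at the annotated start. Rps18 and Rps21 had the lowest and the highest MI-E to MI ratio within the group. Rps27 took its largest part of ribosomal protein UMIs in mature naive B-like cells, with T-like cells next, and Rps27rt is its retrogene. Rpl15 was lower in both infarct libraries, Rpl38 was higher in MI-E, and Rplp2 is a stalk protein.
Rps18 (chr17:33955646-33955675, minus strand): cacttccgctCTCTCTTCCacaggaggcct
Rps21 (chr2:180257369-180257398, plus strand): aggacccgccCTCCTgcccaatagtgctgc
Rps27 (chr3:90213629-90213658, minus strand): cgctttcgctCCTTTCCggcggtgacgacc
Rps27rt (chr9:114982720-114982749, minus strand): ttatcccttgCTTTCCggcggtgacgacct
Rpl15 (chr14:18270967-18270996, minus strand): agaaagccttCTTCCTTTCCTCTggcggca
Rpl38 (chr11:114668570-114668599, plus strand): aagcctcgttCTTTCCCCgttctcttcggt
Rplp2 (chr7:141447641-141447670, plus strand): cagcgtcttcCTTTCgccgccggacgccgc
Rpl10 (chrX:74270806-74270835, plus strand): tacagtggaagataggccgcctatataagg
Rpl31 (chr1:39367841-39367870, plus strand): tcctcgcctccccgtgacccggaagttgta
Rpl10 and Rpl31 have no such run at the annotated start, and the absence says only that these letters are not in these windows. Rps18 and Rps21, at opposite ends of the MI-E to MI comparison, both carry a run. Rps21 has another annotated start (chr2:180257439-180257468), which has none.

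In Sham, the 79 genes together gave between 5.003% of the UMIs of a class, in neutrophil-like cells, and 33.2%, in T-like cells. Stem and multipotent progenitor-like cells held 32.6% and mature naive B-like cells 30.3%. Conventional dendritic-like (25.9%), immature B-like (24.0%), plasmacytoid dendritic-like (23.4%), myeloid progenitor-like (22.9%) and monocyte-like cells (22.6%) formed a middle group, followed by basophil and mast-like (20.4%) and erythroid-like cells (17.6%). The neutrophil-like class stood apart from every other class in all 3 libraries, at 5.003% for Sham, 5.45% for MI and 5.02% for MI-E. Within it, S100a8 and S100a9 alone gave 318792, 310386 and 296450 CPM. The B cell genes Cd79a and Cd79b stood in neutrophil-like cells at 2.48% (Sham), 0.318% (MI) and 0.543% (MI-E) of their level in B lineage-like cells. Sham was thus highest for this RNA of other cells. Where this RNA came from, and its part in the share, was not tested. The neutrophil-like share over single cells ran from 2.58% to 6.95% in Sham (10th to 90th percentile), below the 10th percentile of every class except erythroid-like cells, where it ran from 0.888% to 34.4%.

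**Figure D1:**
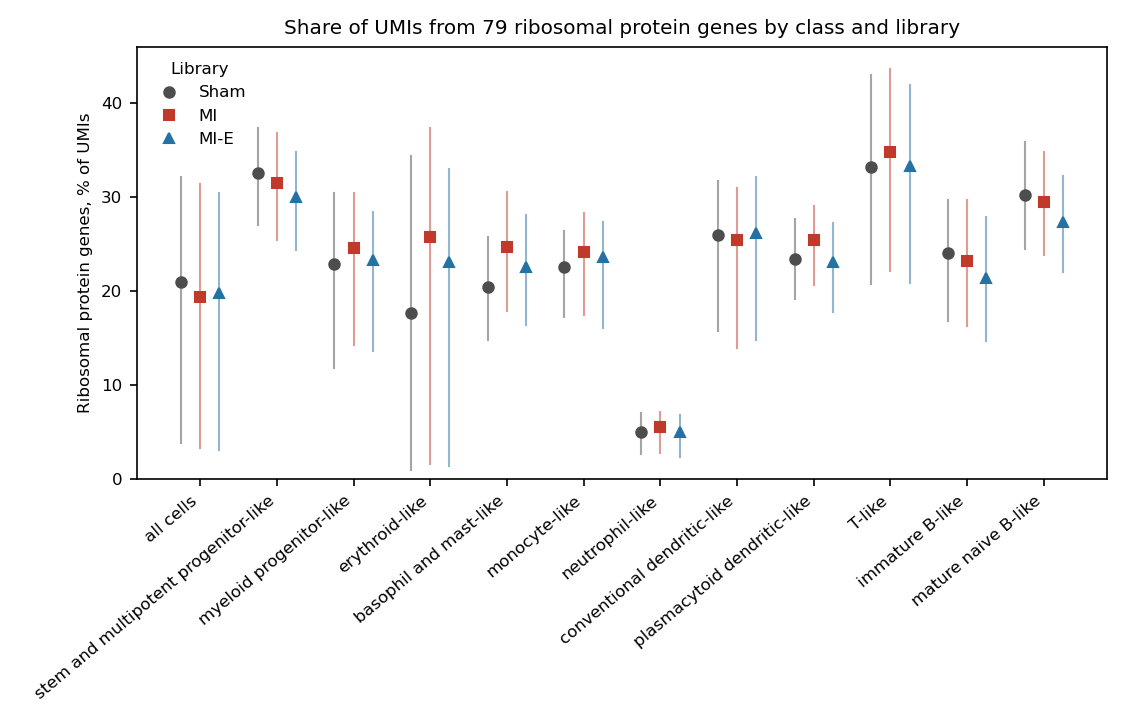
Share of UMIs from the 79 ribosomal protein genes (vertical axis, percent) in all cells and in 11 classes, for Sham, MI and MI-E. Symbols give the share of the summed UMIs and vertical lines the 10th to 90th percentile over single cells, which are not replicates. Neutrophil-like cells sit at 5.003% to 5.45%, erythroid-like cells have the widest spread, and Sham is the lowest erythroid-like value (17.6%).

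Over all cells the share was 20.95% in Sham (20.94% to 20.96%), 19.35% in MI (19.34% to 19.35%) and 19.81% in MI-E (19.81% to 19.82%). The infarct libraries also held more cells of the class with the lowest share: neutrophil-like cells numbered 2644 (Sham), 6842 (MI) and 5193 (MI-E). Within classes the order was different, with a higher share in MI than in Sham in 7 of the 11 classes and a lower share in 4. The count of higher classes was 5 of 11 with coarser clusters (resolution 0.5) and 9 of 11 with the looser cell filter. The log2 ratio of MI over Sham for all cells was -0.11, and 0.063 when the mix of clusters was held equal, an alternative chosen after seeing the data. MI-E over MI turned likewise, from 0.034 to -0.092.

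Erythroid-like cells had the largest difference between Sham and the infarct libraries, at 17.6% in Sham, against 25.8% in MI and 23.1% in MI-E. Over the alternatives run the erythroid-like log2 ratio of MI over Sham, 0.55 here, lay between 0.25, with haemoglobin, immunoglobulin, S100a8 and S100a9 left out of the total, and 2.28, with the libraries clustered apart. That of MI-E over Sham, 0.39 here, lay between 0.05, with the mix of clusters held equal, and 2.11, with the libraries clustered apart. At 0.25 the erythroid-like value was below that of basophil and mast-like cells under the same setting (0.27). Basophil and mast-like cells came next, with 20.4% for Sham, 24.7% for MI and 22.6% for MI-E. Both classes were ordered Sham, MI-E, MI. The ratio of MI over Sham was 1.46 (1.457 to 1.464) in erythroid-like and 1.21 (1.201 to 1.213) in basophil and mast-like cells. Smaller differences in the same direction were found in neutrophil-like (ratio 1.09), plasmacytoid dendritic-like (1.09), monocyte-like (1.07), myeloid progenitor-like (1.07) and T-like cells (1.046). The share was lower in MI than in Sham in stem and multipotent progenitor-like (31.5% against 32.6%, ratio 0.967), mature naive B-like (29.4% against 30.3%, 0.972), immature B-like (23.2% against 24.0%, 0.965) and conventional dendritic-like cells (25.5% against 25.9%, 0.981). Over the alternatives run, the log2 ratio kept its sign in mature naive B-like (-0.06 to -0.01), monocyte-like (0.03 to 0.12) and basophil and mast-like cells (0.05 to 0.31). It turned in T-like (-0.10 to 0.08), neutrophil-like (-0.03 to 0.20) and myeloid progenitor-like cells (-0.02 to 0.12). Of the classes with a lower share in MI, it also turned in immature B-like (-0.08 to 0.03) and stem and multipotent progenitor-like cells (-0.07 to 0.04).

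MI-E lay below MI in 10 of the 11 classes. In mature naive B-like cells the share was 30.3% (Sham), 29.4% (MI) and 27.3% (MI-E), so that MI-E was lowest. In immature B-like cells it was 24.0%, 23.2% and 21.4%, and in stem and multipotent progenitor-like cells 32.6%, 31.5% and 30.03%, in the same order. The ratios of MI-E over MI were 0.928, 0.921 and 0.953 in these 3 classes. They were 0.907 in plasmacytoid dendritic-like and 0.921 in neutrophil-like cells, and the conventional dendritic-like class was the exception at 1.03. Over the alternatives the log2 ratio of MI-E over MI stayed between -0.12 and -0.10 in mature naive B-like and between -0.13 and -0.09 in immature B-like cells. Mitochondrially encoded genes took more of the UMIs in MI-E than in MI in each of the 11 classes (3.58% against 3.004% in mature naive B-like cells, for example). With those genes left out of the total, MI-E still lay below MI in 10 of the 11 classes, and the log2 ratio in mature naive B-like cells was -0.10. Malat1, a nuclear RNA, took 1.13%, 0.557% and 0.608% of the UMIs of Sham, MI and MI-E over all cells; its part in these differences was not tested.

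The share differed widely between clusters of the erythroid-like class and between those of the granulocytes. The erythroid-like cluster led by Car1 and Klf1, with early markers, held 33.4% in Sham, against 34.2% in MI and 30.5% in MI-E. In the cluster led by Slc4a1, the anion exchanger of the red cell membrane, the share was 7.30% for Sham, 14.7% for MI and 9.72% for MI-E. In the cluster led by Tmcc2 and the haemoglobin genes it was 3.17%, 3.72% (161 cells) and 4.90% (143 cells). The largest difference between Sham and MI among these 3 clusters was in the Slc4a1 cluster (7.44 percentage points), where haemoglobin genes took 44.4% (Sham), 29.97% (MI) and 33.6% (MI-E) of UMIs. That cluster held 537 Sham, 321 MI and 231 MI-E cells, and the last cluster 519, 161 and 143; how far cells of 1 cluster stood at the same stage in each library cannot be told apart from a difference in level.

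The granulocyte series began at 22.9% (Sham), 24.6% (MI) and 23.3% (MI-E) in the myeloid progenitor-like cluster led by Elane and Mpo. It stood at 6.82%, 7.74% and 7.69% in the cluster led by Camp and Cebpe. The cluster led by Ltf and Ly6g held 4.14%, 4.18% and 3.93%, and the one led by Retnlg and Cxcr2, genes of mature neutrophils, 4.12% (96 cells), 3.87% and 3.38%. The cluster led by Slc7a11 and Il1b, the largest neutrophil-like cluster of Sham, gave 4.43%, 4.85% and 4.12% (155 cells). A cluster led by Stfa genes, with 2 Sham cells, gave 8.36% in MI (424 cells) and 6.99% in MI-E (148 cells). In the whole neutrophil-like class the MI to Sham ratio was 1.09, and in the Ltf cluster alone it was 1.01. Among monocyte-like cells, the cluster led by Fabp5 and Klf4 held 23.6% in Sham, against 26.2% in MI and 24.8% in MI-E.

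**Figure D2:**
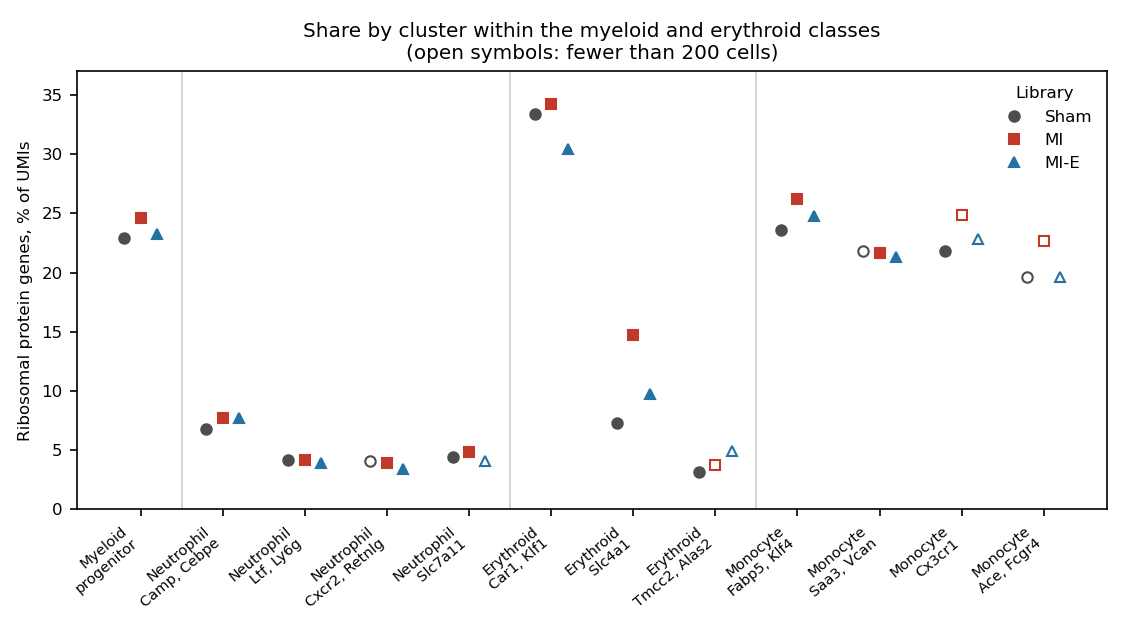
Share of UMIs from the 79 ribosomal protein genes (vertical axis, percent) in single clusters of the myeloid, erythroid and monocyte-like classes, named by leading genes; open symbols mark fewer than 200 cells. The share is 22.9% to 24.6% in myeloid progenitor-like cells and 3.38% to 4.12% in the Cxcr2 cluster, and MI (14.7%) lies above Sham (7.30%) in the Slc4a1 cluster.

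Over all cells 62 of the 79 members were lower in MI than in Sham, where 59.4% of all genes were lower; none passed a fold of 1.5, the size taken as a call. Genes entered a comparison at a mean level of 10 CPM, which all 79 members reached in each of the 11 classes. The backgrounds given here and below are not matched for level, and genes with few UMIs pass a fold more readily through counting error alone. In erythroid-like cells all 79 members were higher in MI than in Sham, where 80.6% of all genes measured were higher; 24 members passed 1.5-fold, against 22.3% of all genes. The member median was 0.53 on the log2 scale and that of all other genes 0.33, and 72 of the 79 were still higher when the libraries were scaled by the other genes. In the Slc4a1 cluster, 78 of 79 members passed 1.5-fold higher in MI, against 30.4% of all genes, with a median of 1.01. In the Car1 cluster 45 members were higher in MI (background 55.5%), with a median of 0.01. MI-E over MI in the Slc4a1 cluster gave 79 of 79 lower, where 43% of all genes were, and 46 past 1.5-fold, against 9.72% of all genes. For MI-E over Sham in erythroid-like cells 78 of 79 members were higher (background 85.4%, median 0.34), a count that was 23 under median-of-ratios scaling, so this direction turned with the scaling.

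In basophil and mast-like cells 77 of 79 members were higher in MI than in Sham (55.3% of all genes were), 72 after either scaling, with a median of 0.26 against 0.05 for other genes. Without doublet removal the count was 50 and the median 0.02. None passed 1.5-fold, as 13.4% of all genes did. Neutrophil-like cells had 60 members higher against a background of 51.4%, and monocyte-like cells 57 against 52.2%, with medians of 0.11 and 0.10. In the neutrophil-like cluster led by Ltf alone, which all 3 libraries filled, 38 of 78 measured members were higher and 40 lower (55.4% of all genes were higher), with a median of -0.02. The monocyte-like count was 41 without doublet removal and 42 with the stricter cell filter, near the background, with a median of 0.02 under each. In plasmacytoid dendritic-like cells 67 were higher in MI (background 60.6%), but 47 after scaling by the other genes and 50 without doublet removal. In T-like cells 54 were higher (background 56.4%), against 37 or 36 after scaling and 13 without doublet removal, so the T-like direction turned with both choices. Mature naive B-like cells went the other way, with 52 of 79 lower (background 33.1%) and 27 higher, a number that was 9 after scaling by the other genes. Their member median was -0.06 and that of other genes 0.14. In the sub-cluster led by Cd200, which held 223 Sham cells, 59 of 79 were lower (background 43.1%). Immature B-like cells also had 52 of 79 lower (background 42.8%), with a median of -0.06.

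MI-E over MI gave a negative member median in all 11 classes, between -0.20 in erythroid-like and plasmacytoid dendritic-like cells and -0.01 in conventional dendritic-like cells. The median of other genes was above 0 in each class. Scaling by the other genes could therefore only lower the member medians further and is no check of their sign. In mature naive B-like cells 56 of 79 members were lower, against 41.5% of all genes. In neutrophil-like cells 58 were lower, against 32% of all genes, and in monocyte-like cells 50, against 32.1%. No member passed 1.5-fold in either direction in any of the 11 classes, whereas 2.34% of all genes in mature naive B-like cells did so downwards. Each class nevertheless held members that were higher in MI-E: 23 in mature naive B-like, 21 in neutrophil-like and 29 in monocyte-like cells. Against Sham, MI-E had 61 of 79 members lower in mature naive B-like cells (background 27%) and 66 of 79 in immature B-like cells (background 35.3%), with medians of -0.21 in both. All 3 comparisons share libraries, so their counts are not independent.

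**Figure D3:**
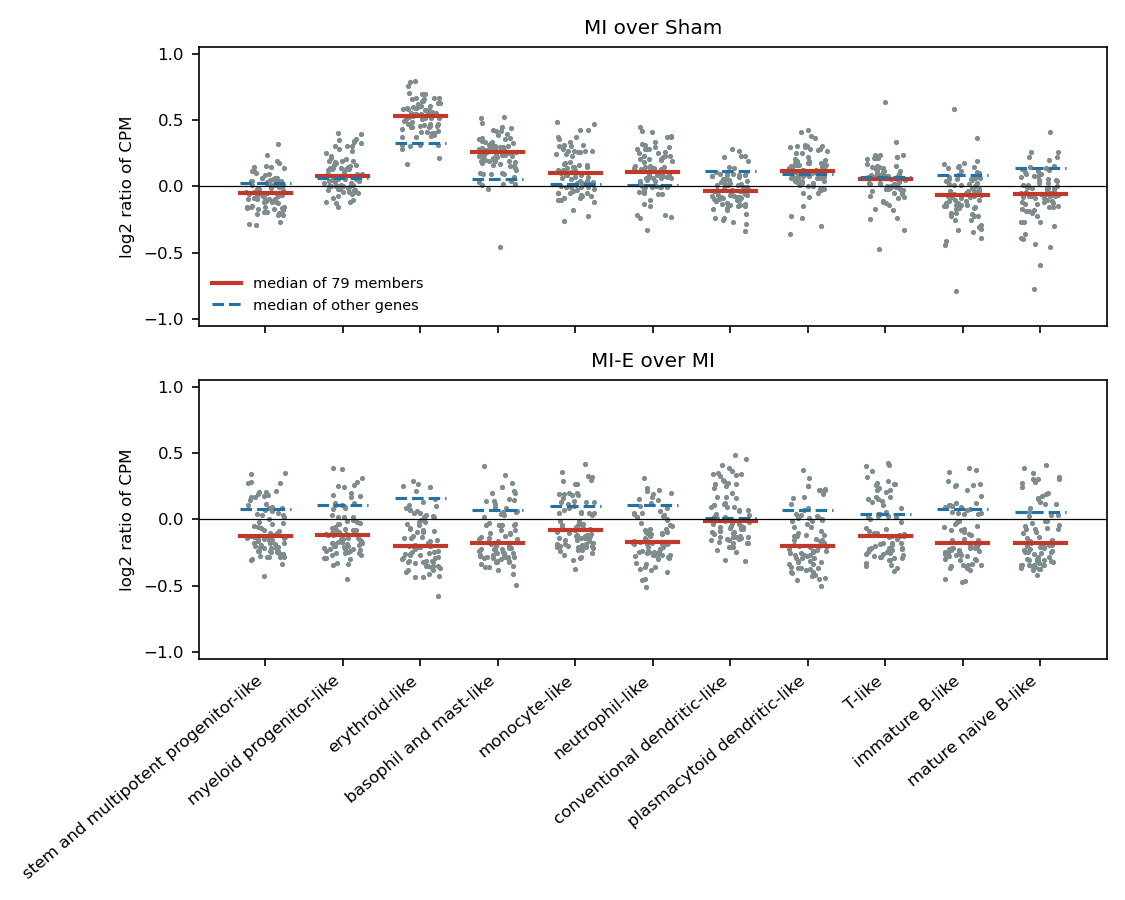
log2 ratio of CPM of each of the 79 members in 11 classes (grey points), for MI over Sham (top) and MI-E over MI (bottom), with the member median (red line) and the median of all other genes measured (dashed blue line). Erythroid-like and basophil and mast-like medians are highest for MI over Sham (0.53 and 0.26), and no member median for MI-E over MI is above 0.

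To compare members without the total share, each was expressed as a percent of all ribosomal protein UMIs of its class (its part of the ribosomal protein RNA). In Sham, among members with at least 50 CPM in every class, the widest range over the 11 classes was that of Rpl31, a large subunit protein near the exit tunnel. Rpl31 gave 0.965% in plasmacytoid dendritic-like cells and between 0.253% (T-like) and 0.465% (erythroid-like) in the other classes. Its level in plasmacytoid dendritic-like cells was 2262 CPM for Sham, 2277 for MI and 2345 for MI-E, and its highest level in another class was 1196 CPM. The pattern was thus present in all 3 libraries.

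Rps27, a zinc finger protein of the small subunit, had its highest parts in mature naive B-like and T-like cells. Its part was 4.05% in mature naive B-like cells of Sham, 4.99% in MI and 5.497% in MI-E, against 1.26%, 1.18% and 1.47% in myeloid progenitor-like cells. T-like cells came next, with 2.89% (Sham), 3.48% (MI) and 4.08% (MI-E). In both classes Sham was lowest and MI-E highest. The retrogene Rps27rt was at low level, with 0.118%, 0.161% and 0.136% in mature naive B-like cells. Reads of near-identical copies can be assigned to either gene, so the values of Rps27 and Rps27rt are uncertain relative to each other.

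Rps9 and Rps27a had their highest parts in the neutrophil-like class. The part of Rps9 there was 3.40% in Sham, against 3.56% in MI and 3.91% in MI-E, and it was 1.30%, 1.32% and 1.33% in myeloid progenitor-like cells. Rps27a, which is made as a fusion with ubiquitin, gave 3.74%, 4.09% and 3.54% in neutrophil-like cells and 1.45%, 1.502% and 1.31% in mature naive B-like cells. Rps2 was highest in erythroid-like cells, at 2.08%, 1.95% and 1.89%, and lowest in neutrophil-like cells of Sham, at 0.778%. At the other end, the parts of Rpl23 and Rpl11 varied over the classes of Sham by 0.22 on the log2 scale. The range of Rps27 was 1.69 for Sham, 2.09 for MI and 1.91 for MI-E, and that of Rpl31 was 1.93, 1.78 and 1.75.

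**Figure D4:**
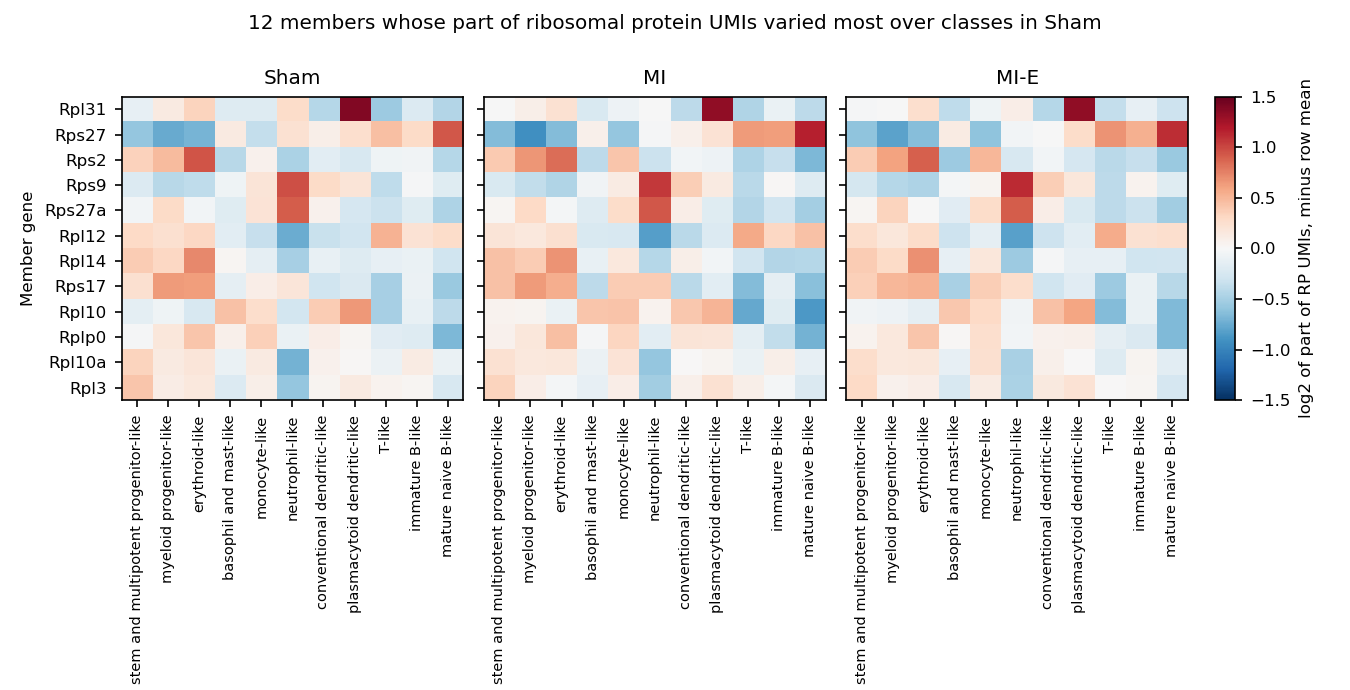
log2 of each member's part of the ribosomal protein UMIs, minus the mean of its row over the 11 classes of that library, for the 12 members with the widest range over classes in Sham among those with at least 50 CPM in every class. Red squares mark Rpl31 in plasmacytoid dendritic-like cells (0.965% in Sham), Rps27 in mature naive B-like cells (4.05%) and Rps9 and Rps27a in neutrophil-like cells (3.40% and 3.74%), in each of the 3 libraries.

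The ratio of large to small subunit UMIs was near 1 in every class. It was highest in erythroid-like cells, at 1.22 (Sham), 1.22 (MI) and 1.20 (MI-E). Mature naive B-like cells had ratios of 1.052, 0.986 and 0.983, and neutrophil-like cells 1.07, 1.048 and 1.02. In T-like cells it was 1.10, 1.06 and 1.03. Mature naive B-like cells were the class in which small subunit UMIs outnumbered those of the large subunit in both infarct libraries.

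Many members differed between MI and MI-E in the same direction in every class. Of the 79 members, 25 had a higher part of the ribosomal protein RNA in MI-E in all 11 classes and 31 a lower part in all 11. Of all 4573 genes measured in each class, 5.93% were higher and 6.49% lower in all 11 on the matching scale (members over ribosomal protein UMIs, other genes over the UMIs of other genes). This background is not matched for level. Genes entered it from 10 CPM, whereas members ran from 39.8 to 7626 CPM over all Sham cells. Counting error turns signs more readily at low levels, so agreement over 11 classes is harder to reach there. The classes of a library were prepared and sequenced together and are not replicates, and whether such a shift belongs to the animals or to the library cannot be told apart with 1 library per group. The members highest in MI-E were Rps21 (median log2 ratio 0.45, from 0.34 to 0.50 over classes), Rpl23a (0.39), Rpl5 (0.37), Rps29 (0.36), Rps28 (0.36) and Rpl38 (0.32). Those lowest were Rps18 (-0.34, from -0.42 to -0.28), Rpl32 (-0.26), Rpl11 (-0.25), Rps13 (-0.23) and Rpl9 (-0.23). None of the log2 ratios of parts named below for single classes changed sign under any alternative run on them. These members were picked as the extremes of a class in the same data, so a kept sign is little support.

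Rps21, a small subunit protein, was lower in MI than in both other libraries in the 3 classes given here. Its level in mature naive B-like cells was 5509 CPM in Sham, against 4183 in MI and 5479 in MI-E. Monocyte-like cells had 3002, 2767 and 3699 CPM, and neutrophil-like cells 703, 598 and 743 CPM. Its part was lower in MI than in Sham in all 11 classes as well (median log2 ratio -0.22).

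Rps18, a small subunit protein at the head of the subunit, had the opposite pattern in monocyte-like and neutrophil-like cells, among others. Its level in monocyte-like cells was 3495 CPM for Sham, 4682 for MI and 3618 for MI-E, and in neutrophil-like cells 586, 759 and 553 CPM. MI was the highest library in both. In mature naive B-like cells Rps18 was 4807, 4230 and 3167 CPM, so MI lay between the others. The part of Rps18 was higher in MI than in Sham in 8 of the 11 classes and lower in MI-E than in MI in all 11.

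Coding length differed between the groups. The 25 members higher in MI-E than MI in all 11 classes had a median of 369 coding bases, the 31 lower ones 474 and the other 23 members 495. Under 400 coding bases, a limit set after these values were seen, lay 16 of the 25, 3 of the 31 and 7 of the 23. Median transcript GC content was 50.7%, 51.8% and 51.8%. The longest of the higher ones was Rpl4, with 1257 coding bases. Whether length, library preparation or anything else lies behind the shift was not tested.

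**Figure D5:**
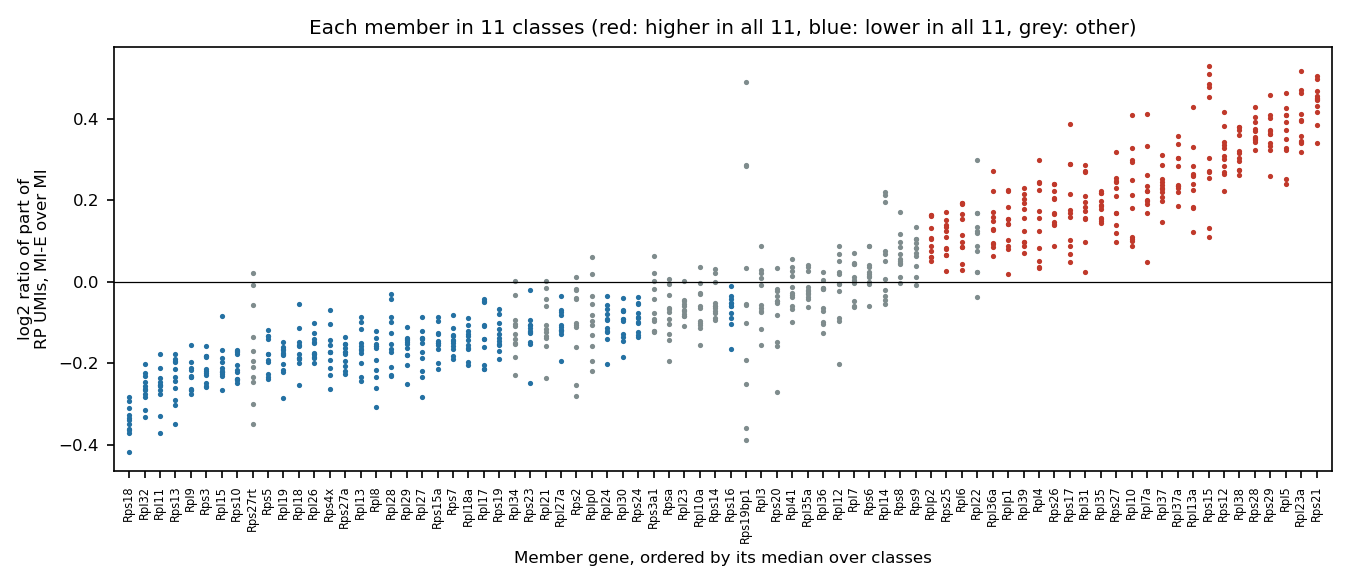
log2 ratio, MI-E over MI, of each member's part of the ribosomal protein UMIs (vertical axis), 1 point per class for 11 classes, with members ordered by their median and 1 member not drawn. Red members are higher in MI-E in all 11 classes (25, Rps21 highest at 0.45) and blue members lower in all 11 (31, Rps18 lowest at -0.34).

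For MI over Sham fewer members had 1 direction in all 11 classes. The part of the ribosomal protein RNA was higher in MI in all 11 classes for 5 members (Rpl8, Rps23, Rps10, Rps14 and Rpl17) and lower in all 11 for 8 (Rpl15, Rps21, Rpl7a, Rpl37, Rpl7, Rps7, Rpl26 and Rpl6), against 5.9% and 1.25% of all genes. The count of higher members was near that background. Among the 8, Rpl15, a large subunit protein, had the lowest median log2 ratio (-0.22). Rpl10 (-0.26) and Rpl21 (-0.24) had lower medians and were lower in 10 of the 11 classes. For MI-E over Sham 15 members were higher and 26 lower in all 11 classes, against 12.4% and 2.67% of all genes. Rpl15 had the lowest median (-0.43) and Rpl38 the highest (0.46). Rpl15 in mature naive B-like cells was 2027 CPM (Sham), 1499 (MI) and 1312 (MI-E). In that class it was ordered Sham, MI, MI-E.

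The stalk of the large subunit, made of Rplp0, Rplp1 and Rplp2, recruits elongation factors. Over all cells Rplp0 was at 2467 CPM in Sham, against 2441 in MI and 2269 in MI-E. Rplp1 was at 2948, 2852 and 3184 CPM and Rplp2 at 2401, 2347 and 2541 CPM. Rplp1 and Rplp2 had a higher part in MI-E than MI in all 11 classes, while Rplp0 did not. Rplp1 took 2.01% of ribosomal protein UMIs in erythroid-like cells of Sham, 2.38% in MI and 2.41% in MI-E. In neutrophil-like cells it took 1.08%, 1.09% and 1.21%, the lowest part of the 11 classes in Sham. In MI and MI-E the lowest part was that of mature naive B-like cells, at 1.01% and 1.18%. Rpsa, the small subunit protein also known as laminin receptor, was at 2986, 2894 and 2816 CPM over all cells.

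Rpl5 and Rpl11 form with 5S RNA the particle that binds Mdm2 when ribosome assembly is disturbed. Rpl5 in mature naive B-like cells was 873 CPM for Sham, 898 for MI and 1119 for MI-E. Rpl11 in the same class was 3298, 3135 and 2469 CPM. MI-E was thus the highest library for Rpl5 and the lowest for Rpl11. The same held in T-like cells, where Rpl5 was 1082, 1259 and 1658 CPM and Rpl11 3725, 3762 and 2995 CPM. In monocyte-like cells Rpl5 was 606, 670 and 820 CPM, and Rpl11 was 2699, 3450 and 2816 CPM with MI highest.

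Among small subunit members with a known disease or signalling role, Rps19 over all cells was 3819 CPM (Sham), 3458 (MI) and 3290 (MI-E). In erythroid-like cells Rps19 was 2804, 4573 and 3589 CPM, the same order as the total share of that class. Its part there was 1.59%, 1.78% and 1.56%. Rps6, the target of S6 kinase, was 1207, 1291 and 1321 CPM over all cells, and its part was 0.576%, 0.667% and 0.667%. Rps4x, encoded on the X chromosome, was 2620, 2273 and 2080 CPM. Rps28 and Rps29, which are among the shortest members, were 3977, 3707 and 4952 CPM and 7626, 6784 and 9011 CPM, with MI-E highest for both. Rpl38, needed for axial patterning in mouse development, was 3325, 3503 and 4420 CPM, and Rpl13a, linked to translational silencing after interferon, 1133, 983 and 1212 CPM.

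In mature naive B-like cells the members with the largest MI to Sham differences in their part were Rpl10, Rpl22 and Rps12 at the low end. Rpl10, which completes the large subunit and is encoded on the X chromosome, was 1649 CPM in Sham, against 966 in MI and 1190 in MI-E. The MI to Sham ratio of its part was between 0.575 and 0.631 (log2 ratio -0.73). Rpl22, whose loss impairs lymphocyte development in mice, was 2464, 1634 and 1863 CPM (log2 ratio of the part -0.55). Rps12 was 3047 CPM in Sham and 2224 in MI (-0.41). Rpl10 and Rpl22 were the 2 of 79 members that passed 1.5-fold lower in level in MI in this class, a count near the background of 2.63% of all genes. At the high end stood Rps27rt (0.45), Rps27 (0.30) and Rpl8 (0.26). Since Sham and the infarct libraries filled this class from different sub-clusters, Rpl10 was also read in the Cd200 sub-cluster alone, where it was 1738 CPM for Sham, 956 for MI and 1186 for MI-E. Rpl22 there was 2524, 1624 and 1863 CPM, so MI was lowest for both within 1 sub-cluster. Rpl10 was also lowest in MI in T-like cells, at 1685 CPM (Sham), 1216 (MI) and 1461 (MI-E), and in plasmacytoid dendritic-like cells, at 2642, 2150 and 2400 CPM. In monocyte-like cells Rpl10 was 1945, 1940 and 2009 CPM, which is close to level.

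In immature B-like cells Rps12 (log2 ratio of the part, MI over Sham, -0.39), Rps21 (-0.36) and Rpl10 (-0.34) were lowest, and Rps27rt (0.63), Rps27 (0.41) and Rps10 (0.24) highest. Rps27 there was 6232 CPM in Sham, against 8009 in MI and 7886 in MI-E. For MI-E over MI, Rps13 (-0.35), Rps18 (-0.35) and Rpl32 (-0.33) were lowest and Rps21 (0.50), Rps15 (0.48) and Rpl5 (0.41) highest. In mature naive B-like cells Rps18 (-0.31) and Rps20 (-0.27) were among the lowest for the same comparison, and Rpl23a (0.52), Rps21 (0.50) and Rps15 (0.45) highest. For MI-E over Sham, Rpl15 (-0.48), Rps18 (-0.45) and Rpl9 (-0.43) were lowest in mature naive B-like cells, and Rpl23a (0.69), Rps15 (0.54) and Rps28 (0.54) highest.

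In neutrophil-like cells the members lowest in MI relative to Sham were Rpl37 (-0.45), Rps21 (-0.36) and Rpl31 (-0.34), and those highest Rps23 (0.33), Rpl32 (0.29) and Rps25 (0.29). Rpl37 was 1039 CPM in Sham and 826 in MI, and Rps23 was 662 and 904. For MI-E over MI the lowest were Rps18 (-0.34), Rpl11 (-0.33) and Rpl27 (-0.28), and the highest Rps21 (0.43), Rpl5 (0.35) and Rps28 (0.34).

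In monocyte-like cells Rpl21 (-0.33) and Rps24 (-0.28) were among the lowest in MI relative to Sham, and Rpl14 (0.39), Rps2 (0.37) and Rpl41 (0.32) highest. Rps2 was 2539 CPM for Sham, 3517 for MI and 3378 for MI-E, and Rpl14 was 1026, 1439 and 1471 CPM. Both infarct libraries lay above Sham for these members, and they also held most of their monocyte-like cells in other clusters than Sham.

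Ribosome biogenesis genes encode the factors that make and process ribosomal RNA and assemble the subunits. In monocyte-like cells 42 of 42 measured genes of ribosome biogenesis were higher in MI than in Sham, with a median of 0.55 against 0.10 for the ribosomal protein members; 18 of them passed 1.5-fold, against 7.42% of all genes. In myeloid progenitor-like cells 44 of 44 were higher (background 58.7%, median 0.56), 18 of them past 1.5-fold, against 5.97% of all genes. In stem and multipotent progenitor-like cells 44 of 44 were higher (background 52.6%, median 0.38). These 3 counts were the same under both scalings, while other cell filters and doublet settings were not run on this list. Sham and MI held most of their monocyte-like cells in different clusters. In the monocyte-like cluster led by Fabp5 and Klf4, which all 3 libraries filled, the list took 0.316% (Sham), 0.492% (MI) and 0.481% (MI-E) of UMIs. Nucleolin (Ncl), a nucleolar organiser of ribosomal RNA synthesis, was 360 CPM (Sham), 690 (MI) and 769 (MI-E) in monocyte-like cells. Nop10, a component of pseudouridylation particles, was 264, 293 and 294 CPM. In the same stem and multipotent progenitor-like cells, 49 of the 79 ribosomal protein members were lower in MI than in Sham (background 47.4%). Without doublet removal 50 of the 79 were higher, and over the alternatives run the member median lay between -0.07 and 0.04, so this direction turned. In immature B-like and T-like cells 33 of 44 and 32 of 44 biogenesis genes were lower in MI (medians -0.27 and -0.22; the background in T-like cells was 43.6%). Mature naive B-like cells had 29 of 40 higher (background 66.9%), a direction that turned to 19 of 40 under scaling by the other genes.

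Other parts of the translation machinery gave mixed counts. Of 21 elongation factors and other TOP messengers, 20 were lower in MI than in Sham over all cells (background 59.4% lower), with a median of -0.23. That count also depends on the mix of classes. In Sham this list took 0.38% of UMIs in neutrophil-like cells and 1.42% over all cells. Within classes its share was higher in MI in erythroid-like (1.72% against 1.37%) and myeloid progenitor-like cells (1.45% against 1.37%), among others. It was lower in monocyte-like and mature naive B-like cells (1.53% against 1.59% in both), among others. Tpt1 in this list was 3038 CPM in Sham, against 2470 in MI and 2578 in MI-E, and Eef1a1 2701, 2329 and 2879 CPM. Mitochondrial ribosomal proteins, which serve the separate ribosome of the mitochondrion, were higher in MI than in Sham for 64 of 77 genes in monocyte-like and 69 of 78 in myeloid progenitor-like cells, where 52.2% and 58.7% of all genes were. In MI-E they were lower than in MI for 52 of 77 and 62 of 78 in the same classes, where 32.1% and 33% of all genes were. Of 18 measured growth regulators of ribosomal protein synthesis, 10 were higher in MI than in Sham over all cells (background 40.6%). Of 38 proteasome subunits, a list of another large complex, 31 were higher over all cells. Their share of UMIs was higher in MI than in Sham in monocyte-like cells (0.699% against 0.588%) and lower in T-like cells (0.368% against 0.434%).

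Across the 33 combinations of class and library, the genes outside the members whose log2 CPM was most like the log2 share of ribosomal protein UMIs were Eef1a1 (Pearson r 0.98), Rack1 (0.97), Eef1b2 (0.97) and Eif3e (0.96), of 3004 genes ranked. The points share libraries and depth, and neutrophil-like cells lie far from the others. Without the neutrophil-like class (30 points) the values were 0.80, 0.70, 0.72 and 0.66. At the negative end stood Rab6a (-0.88), Retnlg (-0.87) and Ltf (-0.84), of which the last 2 are granule and neutrophil genes. Their values without neutrophil-like cells were -0.44, -0.31 and -0.27.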

How the data were processed

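Values are whole UMI counts, as the authors deposited them for each library, made with Cell Ranger 5.0.1 on mm10 per the submitters' processing notes. A barcode passed with at least 300 genes and 500 UMIs and a mitochondrial share up to 10%. Doublets called within each library by scrublet in scanpy (2 simulated per barcode) were left out, numbering 3780 (15.1%), 2996 (12.8%) and 2890 (12.8%) for Sham, MI and MI-E, leaving 73972357, 98538935 and 85593751 UMIs. Cells were clustered together with scanpy 1.11.5 on 2000 variable genes without ribosomal protein genes (40 components, 20 neighbours, leidenalg 0.10.2 at resolution 1), giving 26 clusters; B lineage-like cells were clustered again into 11. Clusters were named from markers.

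UMIs were summed per library and class. Shares carry Clopper-Pearson intervals and ratios exact conditional binomial intervals, at 95%. Precision follows the UMIs of a class; UMIs of 3′ ends do not rank members by abundance. Genes with a mean of at least 10 CPM were measured. Named genes followed a rule: members by role, the 3 highest and 3 lowest parts in the mature naive B-like, immature B-like, neutrophil-like and monocyte-like classes (at least 50 CPM; small pre-B-like cells were under 200 in 2 libraries), the 5 widest ranges, the 2 most abundant of a list, and the most and least alike of 15 and 5 ranked patterns. A few values are left unreported here. Members, lists and rules were chosen with earlier results of these data known. Ratios were tested on simulated data. Alternatives covered cell filters, doublets, clustering, depth, denominator, members and scaling. Sequences came from RefSeq, gene lengths from GENCODE M21 on GRCm38.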

Additional observations from a re-analysis of the deposited data

How the results depend on the processing

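No paired analysis was possible because each group has 1 library, and for the same reason no replicate could be left out. The all-cell log2 ratio of the share, MI over Sham (-0.11), was -0.13 with the stricter and -0.11 with the looser cell filter, -0.12 without doublet removal, -0.26 in cells of 1000 to 2000 UMIs and in cells thinned to 1000 UMIs, -0.12 without mitochondrial genes in the total, -0.070 without haemoglobin, immunoglobulin, S100a8 and S100a9, -0.12 with core ribosome genes outside the rule and the left-out paralogs, -0.21 with equal weight of cells, and 0.063 with the cluster mix held equal (chosen after seeing the data). MI-E over Sham (-0.08) was -0.092 with the stricter filter, -0.084 without doublet removal, -0.21 at 1000 to 2000 UMIs, -0.20 thinned, -0.083 without mitochondrial genes, -0.082 with the added genes, -0.15 with equal weight and -0.029 with the mix held equal. MI-E over MI (0.03) was 0.055 at 1000 to 2000 UMIs, 0.069 thinned, 0.042 without mitochondrial genes, -0.011 without haemoglobin, immunoglobulin, S100a8 and S100a9, 0.056 with equal weight and -0.092 with the mix held equal. The all-cell values with the mix held equal rest in part on clusters with few cells in a library.

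The count of classes with a higher share was 7 of 11 for MI over Sham, and 5 at resolution 0.5, 9 with the looser filter and 2 of 3 at 1000 to 2000 UMIs. For MI-E over Sham it was 7 of 11, and 4 at resolution 0.5, 4 with libraries clustered apart, 4 without haemoglobin, immunoglobulin, S100a8 and S100a9, 3 with equal weight and 0 of 3 at 1000 to 2000 UMIs. For MI-E over MI it was 1 of 11, and 0 with the looser filter, 2 without doublet removal, 0 at resolution 2, 2 with libraries clustered apart and 0 of 3 at 1000 to 2000 UMIs. Classes with a member median above 0, MI-E over Sham, numbered 5, and 0 under median-of-ratios scaling, 0 under TMM and 3 without doublet removal. The cause was not tested, except that fewer classes reached 200 cells at 1000 to 2000 UMIs. Of 13 share ratios per comparison, 7 (MI over Sham), 9 (MI-E over MI) and 6 (MI-E over Sham) never changed sign. Of 13 member medians, 10, 13 and 6 never did. For MI-E over MI neither scaling could turn a negative median, because the shift of the other genes was positive. Of 24 ratios of a member's part per comparison, all 24 kept their sign. Those 24 were picked as extremes in the same data, so their count cannot be set beside the others. For MI over Sham, scaling by the other genes moved erythroid-like log2 ratios by 0.33 and mature naive B-like ones by 0.14.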

Other observations

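Of the paralogs that the rule leaves out, Rpl36al was the most abundant, at 982 CPM for Sham, 1023 for MI and 972 for MI-E over all cells, and Rpl22l1 and Rps27l are described here by class. Rpl22l1, the paralog of Rpl22, was 1419 CPM in stem and multipotent progenitor-like cells of Sham, 919 in MI and 1020 in MI-E. In erythroid-like cells it was 724, 465 and 635 CPM, and in myeloid progenitor-like cells 1090, 765 and 951 CPM. Sham was highest and MI lowest in all 3 of these classes, and the MI to Sham ratio was 0.647 (0.616 to 0.681), 0.641 (0.611 to 0.673) and 0.702 (0.679 to 0.726). Basophil and mast-like cells went the other way, with Rpl22l1 at 529 CPM in Sham and 640 in MI (ratio 1.21). In the Car1 erythroid-like cluster, whose total ribosomal protein share differed little between Sham and MI, the Rpl22l1 ratio was 0.447 (0.424 to 0.471).

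Rps27l, the paralog of Rps27 and a known p53 target, was 327 CPM in B lineage-like cells of Sham and 174 in MI (ratio 0.532, 0.494 to 0.572). In monocyte-like cells it was 548 CPM in Sham and 701 in MI (ratio 1.28). B lineage-like cells of Sham held many pre-B-like cells that the infarct libraries held in small numbers (3019 small pre-B-like cells for Sham, 86 for MI and 116 for MI-E), and the part of this mix was not tested. Within mature naive B-like cells the Rps27l ratio was 1.054 (0.919 to 1.21). Pseudogene copies took few UMIs: Rpl9-ps6 had 3583 for Sham, 4963 for MI and 3772 for MI-E over all cells, and Rpl10-ps3 had 2850, 3391 and 3255. Reads assigned to these copies could belong to Rpl9 and Rpl10, which keeps the levels of those members uncertain by that amount.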
